A study of Mus musculus with 6 samples.

Results

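Imprinted genes are read mainly from 1 parental copy, and 37 of them were followed in the mouse aorta, among them the genes of the Dlk1-Meg3 locus and the small nucleolar RNA DQ267102 that lies inside Rian. They were found by gene symbol, from a list drawn up with earlier results of these data known, and make up 37 of the 29752 genes listed in each library. They fall into 17 loci on 10 chromosomes. The study sequenced RNA from 3 aortic samples labelled PALMD+/-, heterozygous for the palmdelphin gene Palmd, and from 3 labelled wild type. All 6 libraries came from the strain C57BL/6 at 15 weeks of age, after 7 weeks on a normal diet that began at 8 weeks. The labels name no other allele or agent, do not say which stretch of Palmd was altered or in which cells, and leave unsaid whether the libraries are separate animals or pools of animals. The p-values below therefore measure only the spread between these samples, which may be technical.

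Genomic imprinting places methylation on the DNA of the egg or the sperm, and the mark is kept in the body so that a gene is transcribed from only the maternal or only the paternal chromosome. Imprinted genes sit in clusters that share a control region, and in many clusters a long non-coding RNA from a single parental copy keeps nearby coding genes silent in cis. Several paternally expressed members, such as Igf2 and Dlk1, are known for promoting growth before birth, and others, such as the maternally expressed Igf2r, for limiting it, while many members fall silent in tissues after birth. The values here sum both parental copies, so they give the level of each gene and not which copy was read.

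Levels are FPKM, reads scaled by the exon length of the gene and by the reads of the library, which makes levels of different genes comparable per length. The reads behind each library numbered 18260068, 17283918 and 18263297 in heterozygote replicates 1 to 3 and 18275731, 18372118 and 18009005 in wild-type replicates 1 to 3. For the aorta label, the 8 smooth muscle markers summed to 10026, 4766 and 10270 FPKM in heterozygotes and 7112 to 10023 FPKM in wild type. Each of these 8 markers was lowest in heterozygote replicate 2. Most of each sum was Acta2 (3701 to 8367 FPKM), while Tagln, of the same list, lay at only 2.12 to 4.29 FPKM across the libraries. Palmd itself was at 5.31, 7.19 and 6.21 FPKM in the heterozygotes, against 5.49, 7.88 and 10.1 FPKM in wild type, so the groups overlapped and Palmd does not check the genotype labels. Heterozygote replicate 2 stood apart, with a mean correlation over all listed genes of 0.964 with the other libraries, where each of the others had 0.981 to 0.985. It held the lowest sum of chondrocyte markers (122 FPKM against 822 to 1001 elsewhere) and of endothelial markers (267 against 740 to 830). Most of the chondrocyte sum was Cytl1 (101 FPKM against 779 to 950), and Sox9 and Col2a1 were not lowest there. The endothelial marker Kdr was highest there (14.6 against 3.43 to 5.42), and Emcn and Cldn5 were not lowest. Heterozygote replicate 2 also held the highest sums of Schwann cell markers (77.8 against 14.3 to 23.5) and white adipocyte markers (5204 against 1522 to 3981). Fold changes of members that moved by more than 1.5 times without it are given both ways.

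Among the members whose levels could be tested, the largest fold change was that of DQ267102, a gene of 72 bases on chromosome 12 (GRCm38, chr12:109656345-109656416, plus strand) that lies in an intron of Rian. Rian is a maternally expressed long RNA that hosts a row of C/D box small nucleolar RNAs (snoRNAs), a class that in general guides 2′-O-methylation of other RNAs. The GENCODE annotation places 13 snoRNA genes inside Rian, of which 5 overlap no annotated Rian exon, and the 4 that had values here are among those 5. DQ267102 is shown with its closest relative by sequence among them, DQ267101, and with the 3 other snoRNA genes of Rian that had values, so that the copies can be compared beside their reads. Capitals mark the first C box TGATGA and the last CTGA after it, taken as the D box, searched on the sense strand only.
DQ267102: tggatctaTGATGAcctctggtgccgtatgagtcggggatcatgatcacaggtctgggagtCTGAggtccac
DQ267101: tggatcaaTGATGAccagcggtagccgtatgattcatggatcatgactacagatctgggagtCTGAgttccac
Gm25357: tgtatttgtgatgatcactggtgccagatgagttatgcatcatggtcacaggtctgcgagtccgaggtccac
Gm23600: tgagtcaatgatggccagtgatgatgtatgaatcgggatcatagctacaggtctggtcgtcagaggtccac
Gm24564: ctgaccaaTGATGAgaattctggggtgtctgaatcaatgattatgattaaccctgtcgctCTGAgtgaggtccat

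These sequences are from the GENCODE M21 transcripts. Aligned to DQ267102, identity was 83.6% for DQ267101, 80.6% for Gm25357, 76.7% for Gm23600 and 60.5% for Gm24564. The pair of boxes in that order occurred in 8 of the 13 snoRNA genes of Rian and in 24.0% of the 1507 snoRNA genes annotated in the mouse. Gm25357 and Gm23600 hold no TGATGA followed by CTGA, which says only that these letters are not there.

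Imprint control regions are known for a hexamer, TGCCGC, that the zinc finger protein ZFP57 reads when it is methylated, as part of keeping the imprint. In windows of 300 bases around gene starts from RefSeq (GRCm38.p6), 30 of the 37 members had an entry. The hexamer stood on either strand in 11 of these 30 (36.7%), namely Commd1, Grb10, Igf2, Mcts2, Meg3, Mest, Nnat, Plagl1, Snrpn, Zdbf2 and Zim1, against 13.1% of the 27025 genes in the table. A member with several starts was counted if any of its windows held it. The median number of CpG dinucleotides in a gene's richest window was 17 for the members and 8 for all genes. A match is a description of the sequence and was not tested for binding.

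Windows are printed for 3 members whose values are described below. The Peg3 window (chr7:6730370-6730669, minus strand) is shown because Peg3 and Usp29 start next to each other on opposite strands, and its capitals mark the 163 bases between the RefSeq starts. In the Plagl1 window (chr10:13090582-13090881, plus strand) and the Meg3 window (chr12:109540746-109541045, plus strand) the capitals mark GCGGCA, which is the hexamer read from the other strand.
Peg3: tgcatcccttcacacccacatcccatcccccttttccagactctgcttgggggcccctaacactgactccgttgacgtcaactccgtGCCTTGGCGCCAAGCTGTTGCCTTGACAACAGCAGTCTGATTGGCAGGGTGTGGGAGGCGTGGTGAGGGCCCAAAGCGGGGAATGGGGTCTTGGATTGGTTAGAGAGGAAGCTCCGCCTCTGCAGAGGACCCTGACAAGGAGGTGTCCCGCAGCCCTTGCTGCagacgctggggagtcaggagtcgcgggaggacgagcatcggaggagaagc
Plagl1: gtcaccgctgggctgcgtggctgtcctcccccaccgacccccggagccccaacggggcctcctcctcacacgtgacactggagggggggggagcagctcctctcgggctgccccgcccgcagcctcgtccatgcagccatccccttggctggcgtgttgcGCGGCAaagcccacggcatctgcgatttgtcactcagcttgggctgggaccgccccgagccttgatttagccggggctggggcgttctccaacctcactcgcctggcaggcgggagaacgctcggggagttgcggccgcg
Meg3: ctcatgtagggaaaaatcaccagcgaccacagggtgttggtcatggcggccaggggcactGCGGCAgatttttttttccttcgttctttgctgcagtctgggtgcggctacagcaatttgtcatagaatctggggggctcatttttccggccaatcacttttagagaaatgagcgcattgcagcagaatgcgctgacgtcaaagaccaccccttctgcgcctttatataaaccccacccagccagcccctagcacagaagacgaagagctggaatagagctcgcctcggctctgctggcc

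Across the members, levels spanned from 0 to 49.0 FPKM. Neuronatin (Nnat) had the highest level in every library, followed in the means by Blcap, Meg3, Impact, Igf2r, Igf2 and Ndn. The groups were compared for genes that reached 1 FPKM in 3 or more libraries, which kept 21 of the 37 members. The other 16 stayed under that limit, with a highest single value of 1.56 FPKM, and Phlda2, Magel2 and Nespas had no more than 2 reads in any library.

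No member passed the test of heterozygotes against wild type. Of the 21 tested members, 0 had a limma adjusted p under 0.05, where 0% of all 12620 tested genes did, and with limma voom on the recovered reads 0 of 32 members passed, DQ267102 having too few reads for that fit. The smallest adjusted p was 0.459, for DQ267102, and the next was 0.692, for the zinc finger gene Peg3. At an unadjusted limma p under 0.05 there were 2 members higher in heterozygotes (background 4.06% of all tested genes) and 0 lower (background 2.44%). With median-of-ratios scaling in place of the authors' own, these backgrounds were 3.22% higher and 3.40% lower. The 3 heterozygote libraries lay above all 3 wild-type libraries for 5 members, DQ267102, Impact, Ndn, Peg3 and Plagl1 (background 7.8%), and below them for 0 (background 5.12%). DQ267102 met the level filter only through its heterozygote libraries and so had to differ, and these counts are a description that supports nothing further. In bulk tissue, fewer cells of a type and less RNA per cell cannot be told apart, and this holds for each value below.

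**Figure D1:**
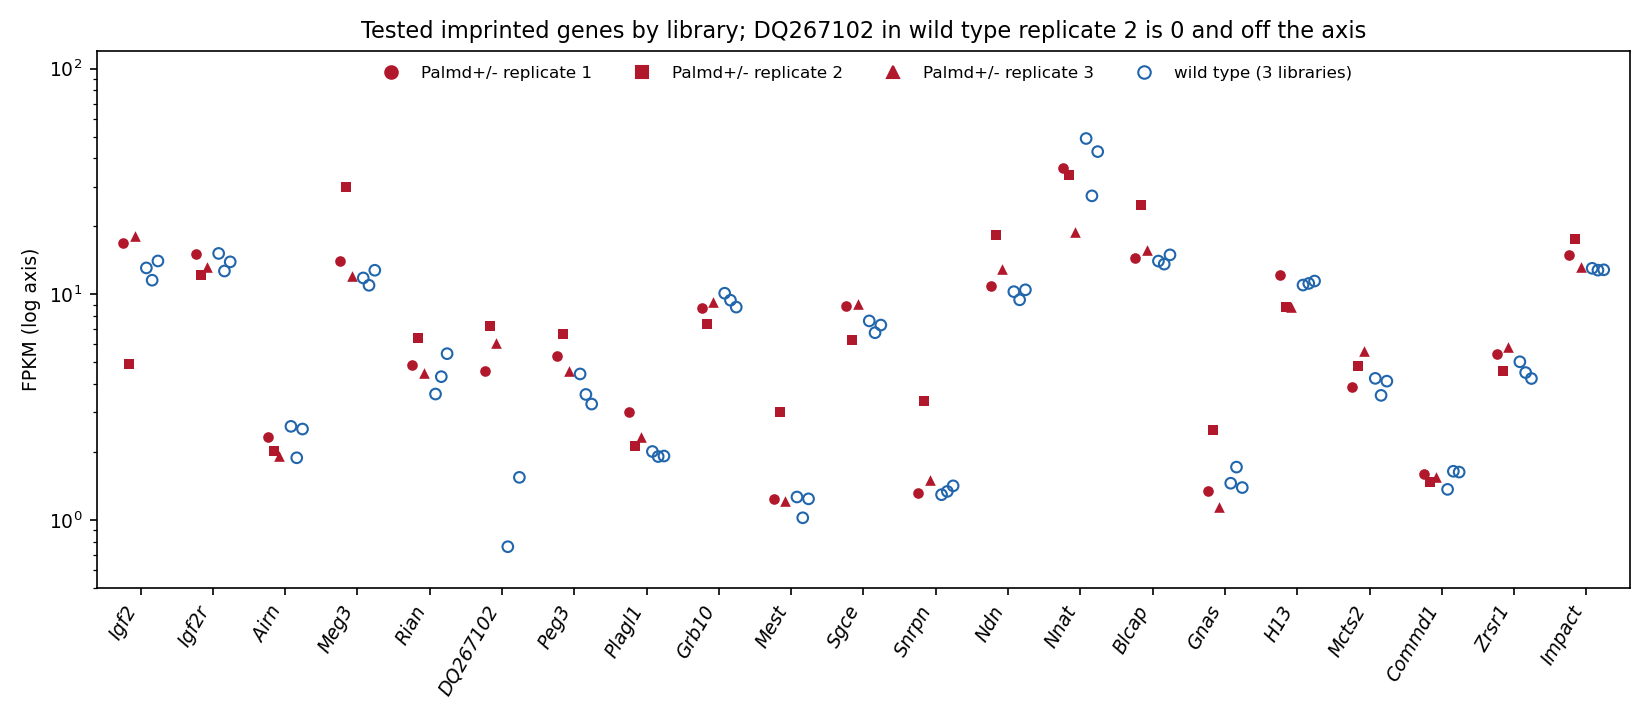
FPKM on a log axis of the 21 tested imprinted genes, with filled markers for each Palmd+/- replicate and open circles for the 3 wild-type libraries. For DQ267102, Peg3, Plagl1, Ndn and Impact the Palmd+/- markers sit above every wild-type circle, and for most others the groups overlap; DQ267102 in wild-type replicate 2 is 0 and is not drawn.

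In the Dlk1-Meg3 locus on chromosome 12, the maternally expressed long RNAs were present at 0.646 to 29.8 FPKM and the paternally expressed coding genes Dlk1 and Rtl1 at 0.00856 to 0.982 FPKM. Meg3, the non-coding RNA at the head of the maternal transcripts, was at 14.1, 29.8 and 12.01 FPKM in heterozygotes, against 11.8, 10.95 and 12.8 FPKM in wild type. Heterozygote replicate 2 was far above all others, and heterozygote replicates 1 and 3 lay within or just above the wild-type range. The log2 fold change of Meg3 was 0.51 (SE 0.32, limma adjusted p = 0.861), and 0.13 without heterozygote replicate 2. The summed Schwann cell markers were also highest in that library, as given above, and their part in the Meg3 value was not tested.

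Rian, which hosts the snoRNAs, was at 4.84, 6.40 and 4.50 FPKM in heterozygotes, against 3.61, 4.31 and 5.45 FPKM in wild type. The groups overlapped, with wild-type replicate 3 above heterozygote replicates 1 and 3. Its log2 fold change was 0.20 (SE 0.17, limma adjusted p = 0.924), and 0.07 without heterozygote replicate 2. Mirg, the host of a cluster of microRNAs further along the same strand, averaged 0.738 ± 0.0801 FPKM in heterozygotes and 0.808 ± 0.137 FPKM in wild type (SD, n = 3 each), was under the filter, and was not tested.

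DQ267102 was at 4.56, 7.23 and 6.08 FPKM in heterozygotes, against 0.760, 0 and 1.54 FPKM in wild type. Because the gene is so short, 1 read on it is worth 0.756 to 0.804 FPKM, and these levels stand for 6, 9 and 8 reads in the heterozygote libraries and 1, 0 and 2 reads in the wild-type libraries. Every heterozygote library held more reads than any wild-type library. On the FPKM + 1 scale the log2 fold change was 2.06 (SE 0.34), with a limma adjusted p of 0.459, and without heterozygote replicate 2 it was 1.93 (adjusted p = 0.219). Since only 1 wild-type library reached 1 FPKM, the gene was admitted to the comparison by the group in which it was higher, and these values describe it and do not serve as a test.

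Summed over libraries, DQ267102 had 23 reads in heterozygotes (exact 95% Poisson interval 14.6 to 34.5) and 3 reads in wild type (0.619 to 8.77). Scaled by depth, the ratio was 7.79, with an exact 95% interval of 2.35 to 40.5. These intervals cover counting error only, since reads without molecular identifiers are not independent molecules. They leave out the spread between libraries. The gene was admitted through its heterozygote libraries, so these intervals do not serve as a test. With the same limit, limma's library weights gave a log2 fold change of 2.37 (adjusted p = 0.0317), and over the 12 alternatives fitted the adjusted p ran from 0.0317 to 0.9999. A pseudocount of 0.1 gave a log2 fold change of 3.52.

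The other 3 snoRNA genes of Rian that had values did not show the same pattern in their few reads. Gm24564 had 1 read in heterozygotes and 1 in wild type, and so did Gm25357. Gm23600 had 5 reads, all in heterozygote replicate 2, and 2 reads in wild-type replicate 2. At this depth a difference in these 3 genes was not detectable. The 83.6% identity of DQ267101 shown above bears on how reads could be shared between these copies, and how the authors placed such reads is not given in the sources used here, so the DQ267102 count is uncertain in that respect. The libraries were made from poly-T selected RNA, and reads of the mature snoRNA cannot be told apart from reads of the unspliced Rian intron that holds it.

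**Figure D2:**
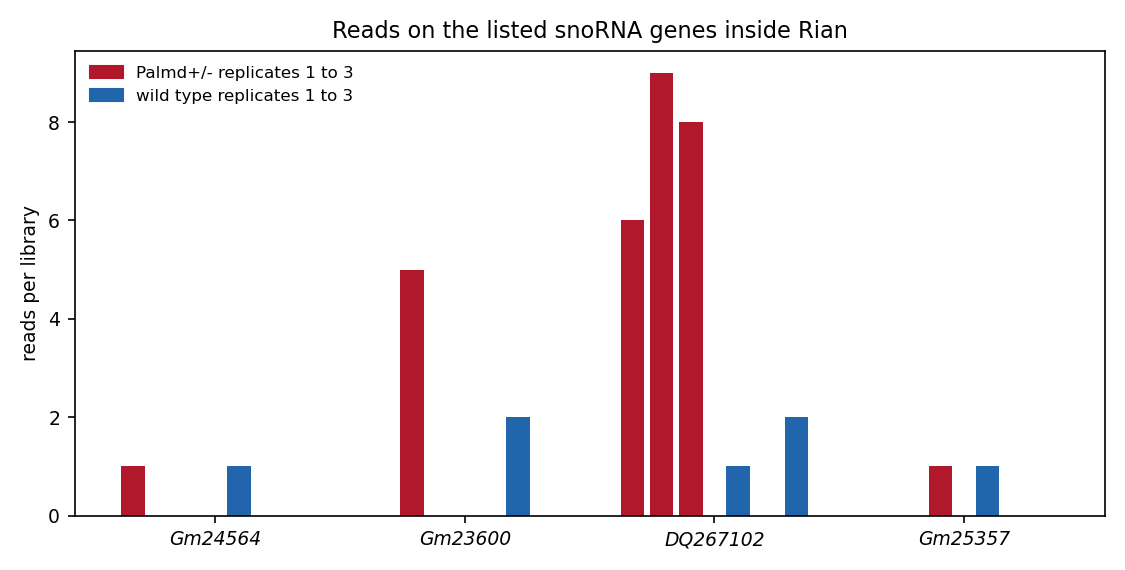
Reads per library on the 4 snoRNA genes inside Rian that have values, as bars from 0, with Palmd+/- replicates 1 to 3 left of wild-type replicates 1 to 3 for each gene. DQ267102 shows 6, 9 and 8 reads in Palmd+/- libraries and 1, 0 and 2 in wild-type libraries, while the other 3 genes have at most 5 reads in any library.

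Small nucleolar RNA genes were also counted as a class. The files list 238 snoRNA genes, of which 51 passed the level filter. Their median log2 fold change was -0.13, and 22 of the 51 lay above 0, where 53.1% of all tested genes did. At an unadjusted limma p under 0.05 there were 3 higher (DQ267102, Gm22478 and Gm26387, background 4.06%) and 4 lower (Gm22362, Gm25835, Gm25965 and Snora31, background 2.44%), and none had an adjusted p under 0.05. The groups did not overlap for 3 higher (background 7.8%) and 2 lower (background 5.12%). These counts are not support, because DQ267102 and Gm26387 passed the filter only through heterozygote libraries and Gm22362 and Gm25835 only through wild-type libraries. The snoRNAs were named after their values were seen. Without DQ267102, all snoRNA reads summed to 386, 339 and 339 in heterozygotes and to 362, 413 and 386 in wild type. The hosts of other snoRNAs were counted in the same way. Of 12 tested snoRNA host RNAs, 0 had a limma unadjusted p under 0.05 in either direction. The groups did not overlap for 1 higher (Snhg6, log2 fold change 0.12, background 7.8%) and 1 lower (Snhg5, log2 fold change -0.39, background 5.12%). The gene with the smallest p, Snhg8, was at 10.8, 9.63 and 13.03 FPKM in heterozygotes and at 6.74, 10.5 and 6.84 FPKM in wild type.

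The coding genes of the Dlk1-Meg3 locus stayed under the level filter in these adult aortas. Dlk1, a membrane protein related to Notch ligands that is known from preadipocytes and fetal tissue, was at 0.0774, 0.982 and 0.416 FPKM in heterozygotes, or 8, 96 and 43 reads. In wild type it was at 0.184, 0.144 and 0.285 FPKM, or 19, 15 and 29 reads. The heterozygote libraries held both the lowest and the 2 highest values, so the spread among them was wider than the distance between the groups. Rtl1, a retrotransposon-derived gene known from placental vessels, had 8 to 13 reads in heterozygotes and 1 to 10 in wild type. Begain, whose imprint depends on the isoform and whose protein is known from synapses, reached 1.56 FPKM in heterozygote replicate 2 and lay between 0.447 and 0.617 FPKM in the other 5 libraries.

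At the Igf2-H19 locus on chromosome 7, the fetal growth factor gene Igf2 was at 16.9, 4.89 and 18.1 FPKM in heterozygotes, against 13.1, 11.5 and 14.0 FPKM in wild type. Heterozygote replicate 2 had the lowest value of all and the other 2 heterozygote libraries had the highest. Igf2 had a log2 fold change of -0.13 (SE 0.45, limma adjusted p = 0.985). Without heterozygote replicate 2 it turned to 0.42 (adjusted p = 0.271), and with library weights it was 0.45 (adjusted p = 0.186, the lowest of its alternatives, which reached 0.99995). H19, the maternally expressed non-coding RNA that shares enhancers with Igf2, was under the filter at 0.762, 0.805 and 1.29 FPKM in heterozygotes and 0.646, 0.574 and 1.03 FPKM in wild type, with overlapping groups.

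Igf2r, the maternally expressed receptor that takes IGF2 into the cell for breakdown, differed by less than its spread. It was at 15.1, 12.2 and 13.2 FPKM in heterozygotes, against 15.2, 12.7 and 13.9 FPKM in wild type. Its log2 fold change was -0.04 (95% interval -0.33 to 0.25, SE 0.12), with a limma adjusted p of 0.981, and took the other sign, at 0.02, both without heterozygote replicate 2 and with library weights. Airn, the paternal RNA that runs antisense over Igf2r and silences its paternal copy, was at 2.34, 2.02 and 1.91 FPKM in heterozygotes, against 2.60, 1.88 and 2.53 FPKM in wild type. Airn had a log2 fold change of -0.11 (SE 0.13, limma adjusted p = 0.943). The labels do not say that strand was kept, so reads of Igf2r introns and of Airn cannot be told apart, and 12 of the 37 members overlap a gene on the opposite strand in this way.

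The genes that act with IGF2 were counted from a separate list. Of 11 tested binding proteins, receptors and related growth factors, 0 had a limma unadjusted p under 0.05, with a median log2 fold change of -0.02. Igfbp3, a binding protein, averaged 10.95 ± 11.2 FPKM in heterozygotes and 3.85 ± 0.712 FPKM in wild type (SD, n = 3 each), and heterozygote replicate 2 alone reached 23.8 FPKM. Its log2 fold change of 0.89 was 0.15 without that library. The most abundant of those named, Igfbp5, averaged 152 ± 6.13 FPKM in heterozygotes and 137 ± 13.9 FPKM in wild type (SD, n = 3 each). Igf1 averaged 7.31 ± 1.60 FPKM in heterozygotes and 6.08 ± 2.14 FPKM in wild type, and Igfbp2 13.4 ± 7.98 FPKM in heterozygotes and 18.4 ± 9.27 FPKM in wild type (SD, n = 3 each). Without heterozygote replicate 2 the log2 fold change of Igfbp2 was -0.06, against -0.49 with it, and that of Igf1 was 0.14, against 0.25.

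Peg3, a paternally expressed zinc finger gene on chromosome 7 known for its part in growth and maternal behaviour, was at 5.33, 6.64 and 4.58 FPKM in heterozygotes, against 4.43, 3.59 and 3.26 FPKM in wild type. The heterozygote libraries all lay above the wild-type libraries, the closest pair being heterozygote replicate 3 and wild-type replicate 1. Its log2 fold change was 0.45 (95% interval 0.08 to 0.82, SE 0.15), with a limma adjusted p of 0.692, and 0.33 without heterozygote replicate 2. An exact permutation test, two-sided, gave p = 0.1, the smallest possible. The values did not pass the test across all genes.

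Usp29 starts beside Peg3 on the opposite strand, in the window printed above, and encodes a ubiquitin-specific protease. It had 2, 22 and 3 reads in heterozygotes, against 0, 0 and 1 reads in wild type. Most of these reads were in heterozygote replicate 2, and the gene stayed under the filter. Zim1, a maternally expressed zinc finger gene of the same cluster, had 26, 56 and 43 reads in heterozygotes and 37, 19 and 24 in wild type, with overlapping groups.

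Plagl1, Ndn and Impact were the remaining tested members whose groups did not overlap, each with its heterozygote libraries higher. Plagl1, a zinc finger transcription factor known for arresting the cell cycle, was at 3.01, 2.12 and 2.32 FPKM in heterozygotes, against 2.01, 1.91 and 1.92 FPKM in wild type. The distance between the lowest heterozygote and the highest wild-type library was small beside the spread among heterozygotes. Plagl1 had a log2 fold change of 0.24 (SE 0.12, limma adjusted p = 0.817), and 0.31 without heterozygote replicate 2.

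Necdin (Ndn), a MAGE family protein of the Prader-Willi region known from neurons and from restraint of adipocyte growth, was at 10.9, 18.4 and 12.95 FPKM in heterozygotes, against 10.3, 9.44 and 10.5 FPKM in wild type. Heterozygote replicate 2 was the highest and replicate 1 was only just above wild type. Ndn had a log2 fold change of 0.42 (SE 0.18, limma adjusted p = 0.772), and 0.22 without heterozygote replicate 2. Impact, which holds back the stress kinase GCN2, was at 15.0, 17.6 and 13.1 FPKM in heterozygotes, against 13.03, 12.8 and 12.8 FPKM in wild type. Wild-type values were nearly equal, and heterozygote replicate 3 lay just above them. Impact had a log2 fold change of 0.22 (SE 0.12, limma adjusted p = 0.837), and 0.11 without heterozygote replicate 2.

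**Figure D3:**
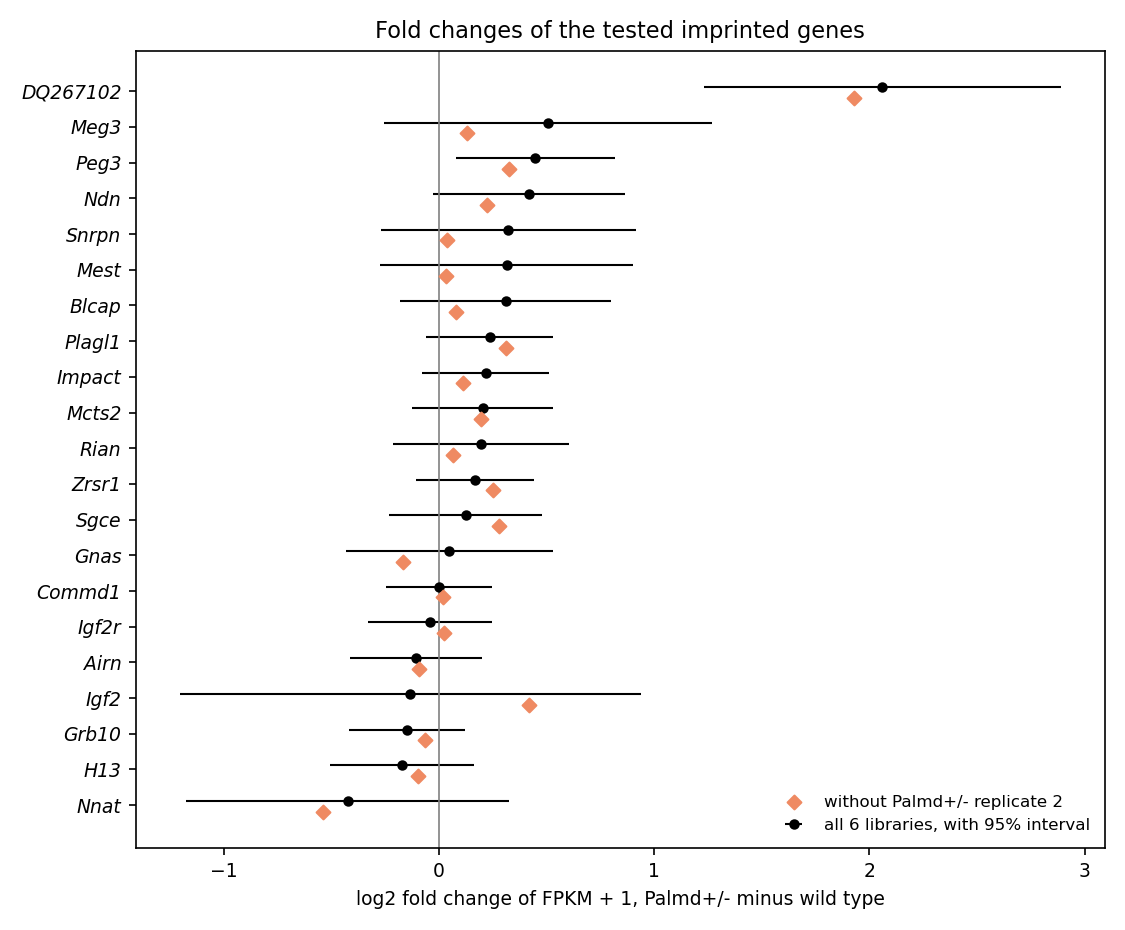
Log2 fold change of FPKM + 1, Palmd+/- minus wild type, for the 21 tested imprinted genes, with black points and 95% intervals from all 6 libraries and orange diamonds without Palmd+/- replicate 2. DQ267102 stands at 2.06, the interval of Peg3 also lies above 0, and Igf2, Igf2r, Gnas and Commd1 change sign without that library.

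The other members of the Prader-Willi region lay lower. Snrpn, which encodes a spliceosomal protein of the SmN type, averaged 2.06 ± 1.14 FPKM in heterozygotes and 1.35 ± 0.0618 FPKM in wild type (SD, n = 3 each). Heterozygote replicate 2 reached 3.38 FPKM, and the other 5 libraries lay between 1.29 and 1.50 FPKM. The log2 fold change of Snrpn was 0.32 (SE 0.25), and 0.04 without that library. Peg12, an intronless gene of the same region, had 10 to 24 reads in heterozygotes and 16 to 33 in wild type. Magel2, a second MAGE family gene, had 1 read in heterozygotes and 2 in wild type.

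Mest showed the same shape as Snrpn. It encodes a protein of the hydrolase fold family and is known from expanding fat tissue, and it averaged 1.81 ± 1.02 FPKM in heterozygotes and 1.17 ± 0.133 FPKM in wild type (SD, n = 3 each). Heterozygote replicate 2 held 2.99 FPKM and the other 5 libraries 1.02 to 1.26 FPKM, and the log2 fold change of 0.31 was 0.03 without that library. White adipocyte markers, 10 of 10 of them detected, summed to 1522 to 5204 FPKM in heterozygotes and 1776 to 3981 FPKM in wild type, with the top value in the same library. Wild-type replicate 3 had the next highest sum, with Mest at 1.24 FPKM. With those markers as a covariate the log2 fold change of Mest was 0.40 (limma adjusted p = 0.226). The part of fat cells in the Mest value was not tested.

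Nnat, a small proteolipid of the endoplasmic reticulum that lies within an intron of Blcap on the other strand, averaged 29.6 ± 9.40 FPKM in heterozygotes and 39.7 ± 11.2 FPKM in wild type (SD, n = 3 each). Single libraries ran from 18.9 FPKM in heterozygote replicate 3 to 49.0 FPKM in wild-type replicate 1, and the groups overlapped. The log2 fold change of -0.42 (SE 0.31, limma adjusted p = 0.897) was the lowest among the tested members, and -0.54 without heterozygote replicate 2. Blcap, a small membrane protein gene, averaged 18.4 ± 5.75 FPKM in heterozygotes and 14.2 ± 0.690 FPKM in wild type (SD, n = 3 each). It lay at 24.9 FPKM in heterozygote replicate 2 and at 13.6 to 15.7 FPKM elsewhere, and its log2 fold change of 0.31 was 0.08 without that library.

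Gnas, the gene of the stimulatory G protein alpha subunit, averaged 1.67 ± 0.738 FPKM in heterozygotes and 1.52 ± 0.171 FPKM in wild type (SD, n = 3 each), with a log2 fold change of 0.05 that was -0.17 without heterozygote replicate 2. Its antisense RNA Nespas had 1 read in the 6 libraries. Nespas and Gm20721 overlap Gnas on the other strand. How reads of overlapping genes were counted is not given in the sources used here, so the level of Gnas is uncertain. At the H13-Mcts2 locus, H13, the signal peptide peptidase, averaged 9.93 ± 1.97 FPKM in heterozygotes and 11.2 ± 0.230 FPKM in wild type (SD, n = 3 each), with a log2 fold change of -0.17 that was -0.10 without heterozygote replicate 2. Mcts2, a retrogene inside an H13 intron, averaged 4.76 ± 0.866 FPKM in heterozygotes and 3.97 ± 0.360 FPKM in wild type (SD, n = 3 each), with a log2 fold change of 0.20. Mcts2 is a near copy of Mcts1, and its level is uncertain where reads could be split between them.

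A retrogene in an intron also marks the Commd1-Zrsr1 locus on chromosome 11. Commd1, known from copper handling, averaged 1.54 ± 0.0628 FPKM in heterozygotes and 1.54 ± 0.156 FPKM in wild type (SD, n = 3 each), the closest means among the tested members. Zrsr1, a paternally expressed retrogene related to a splicing factor subunit, averaged 5.28 ± 0.646 FPKM in heterozygotes and 4.58 ± 0.401 FPKM in wild type, with a log2 fold change of 0.17, and 0.25 without heterozygote replicate 2. Grb10, an adaptor that damps insulin and IGF1 receptor signalling, averaged 8.43 ± 0.949 FPKM in heterozygotes and 9.43 ± 0.668 FPKM in wild type (SD, n = 3 each), with a log2 fold change of -0.15, and -0.07 without that library. None of these 3 passed the limma test.

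In the Peg10-Sgce cluster on chromosome 6, neighbouring genes lay on different sides. Sgce, epsilon-sarcoglycan of the membrane complex that ties muscle cells to the matrix, was the most abundant member there, at 8.05 ± 1.57 FPKM in heterozygotes and 7.22 ± 0.438 FPKM in wild type (SD, n = 3 each). Its log2 fold change was 0.12 with all libraries and 0.28 without heterozygote replicate 2. Peg10, a retrotransposon-derived gene that starts beside Sgce on the opposite strand, was under the filter at 0.706, 0.720 and 0.517 FPKM in heterozygotes, against 0.788, 0.882 and 1.11 FPKM in wild type. All heterozygote values of Peg10 lay below all wild-type values, and an exact permutation test, two-sided, gave p = 0.1, the smallest possible.

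Asb4, an ankyrin repeat and SOCS box gene of the same cluster known from vascular development, lay on the other side. It had 38, 28 and 42 reads in heterozygotes, against 21, 17 and 26 reads in wild type. The heterozygote libraries lay above the wild-type ones, at 0.509 ± 0.0882 FPKM against 0.298 ± 0.0661 FPKM (SD, n = 3 each, exact two-sided permutation p = 0.1). With the level filter lowered to 0.1 FPKM, limma gave Asb4 a log2 fold change of 0.22 (adjusted p = 0.764) and Peg10 one of -0.22 (adjusted p = 0.804). Pon3, a paraoxonase gene between them that belongs to the list of further imprinted genes, was at 13.8, 18.6 and 13.1 FPKM in heterozygotes, against 20.8, 20.0 and 24.0 FPKM in wild type. Its groups did not overlap, and its log2 fold change was -0.49 (SE 0.16, limma adjusted p = 0.648).

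The Kcnq1ot1 domain on chromosome 7 also held genes with lower heterozygote values. Kcnq1ot1, the paternal non-coding RNA that silences its neighbours, was at 0.04997, 0.0665 and 0.0558 FPKM in heterozygotes, against 0.0694, 0.0793 and 0.0895 FPKM in wild type, with no overlap and under the filter. Cdkn1c, the maternally expressed cell cycle inhibitor that Kcnq1ot1 is known to silence on the paternal copy, was at 5.24, 5.36 and 4.27 FPKM in heterozygotes, against 6.17, 7.55 and 6.29 FPKM in wild type. In both genes the heterozygote libraries lay below the wild-type ones. Cdkn1c had a log2 fold change of -0.37 (SE 0.12, limma adjusted p = 0.682). Phlda2, a gene known for limiting placental growth, had 1 read in heterozygotes and 0 in wild type.

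Cars, the cysteinyl-tRNA synthetase gene at the edge of the same domain, had the smallest p among the neighbours of members. It was at 4.50, 4.16 and 4.61 FPKM in heterozygotes, against 6.08, 6.09 and 6.72 FPKM in wild type. The groups lay well apart for each library. Its log2 fold change was -0.43 (SE 0.09, limma adjusted p = 0.548), and it was chosen for this text after its values were seen.

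**Figure D4:**
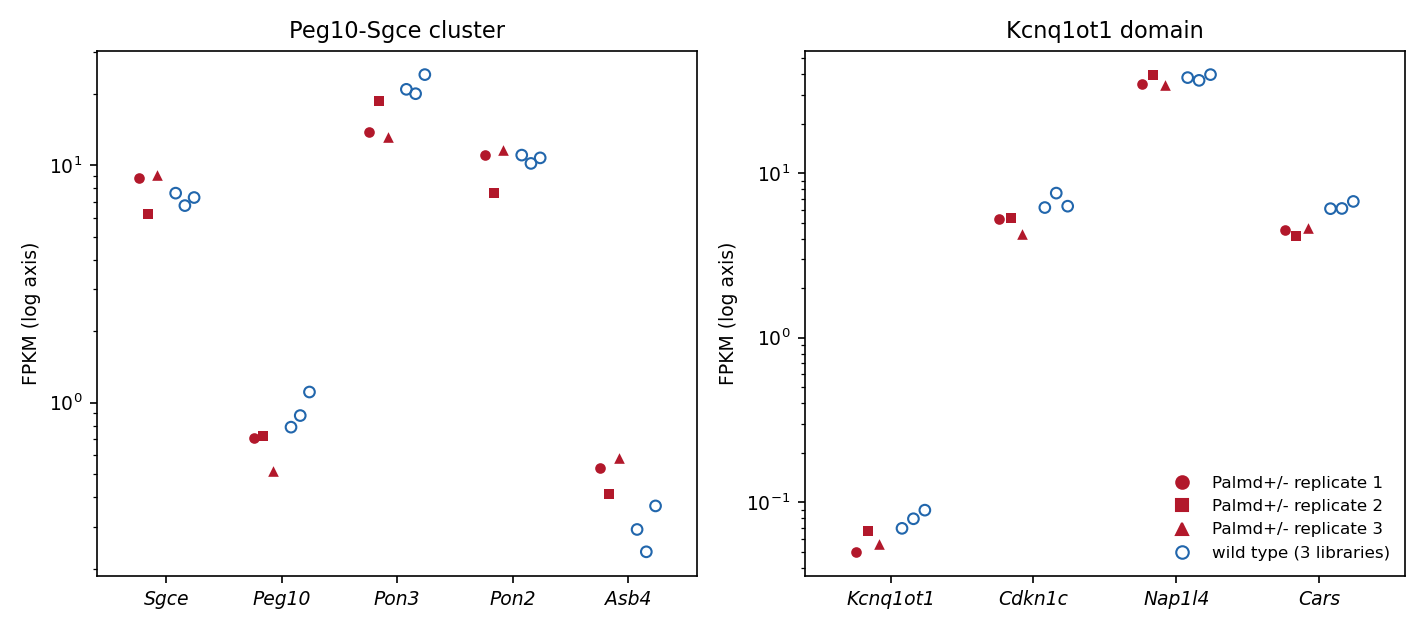
FPKM on a log axis of genes in the Peg10-Sgce cluster (left panel) and the Kcnq1ot1 domain (right panel), with filled markers for each Palmd+/- replicate and open circles for the 3 wild-type libraries. Palmd+/- markers sit below the wild-type circles for Peg10, Pon3, Kcnq1ot1, Cdkn1c and Cars and above them for Asb4.

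At 2 loci only low levels were seen. Rasgrf1, a guanine nucleotide exchange factor for Ras known from brain, had 2 to 11 reads in heterozygotes and 4 to 13 in wild type. Zdbf2, a zinc finger gene, had 5 to 38 reads in heterozygotes and 8 to 17 in wild type, with the highest number in heterozygote replicate 2.

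Heterozygote replicate 2 was the highest of the 6 libraries for 10 of the 21 tested members, where it was the highest for 26.4% of all tested genes. It was the lowest for 5 members, where it was the lowest for 34.2% of all tested genes. Relative to the median of the other 5 libraries, it held 2.53 times the Snrpn level, 2.48 times the Meg3 level, 2.42 times the Mest level and 1.80 times the Gnas level. Igf2 lay on the other side at 0.349 times. Among untested members it held 5.34 times the Dlk1 level, 4.04 times the Zdbf2 level and 3.42 times the Begain level. Schwann cell markers, 8 of 8 with a value above 0 in at least 1 library and Pmp2 in only 1, summed to 14.3, 77.8 and 18.6 FPKM in heterozygotes and to 16.2, 15.7 and 23.5 FPKM in wild type, and their part in these values was not tested.

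**Figure D5:**
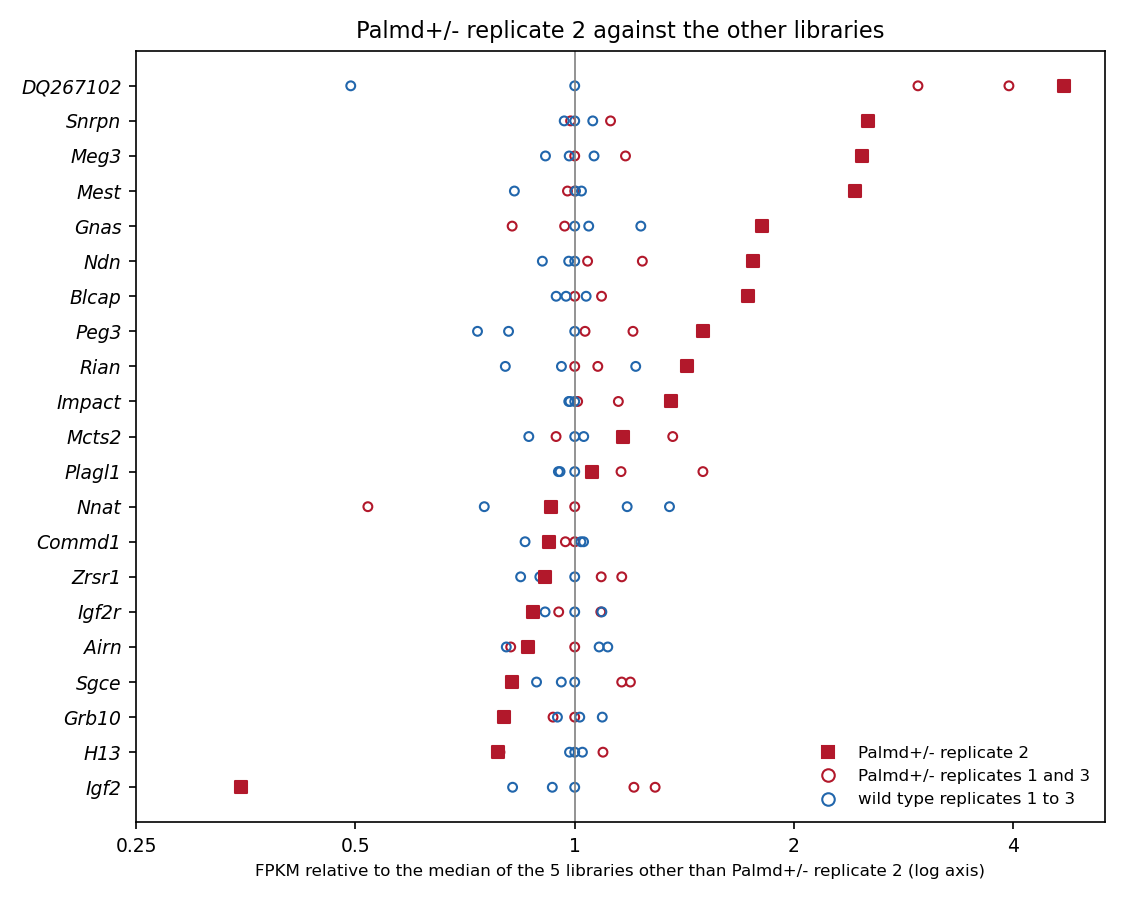
FPKM of each tested imprinted gene divided by the median of the 5 libraries other than Palmd+/- replicate 2, on a log axis, with filled squares for that library, open circles in the Palmd+/- colour for replicates 1 and 3 and in the wild-type colour for wild-type replicates 1 to 3. The squares of Meg3, Snrpn and Mest stand near 2.5, that of Igf2 at 0.349, and DQ267102 is spread by its low read number.

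Grouped by the parental copy that is usually read, 12 of 21 paternally expressed members were tested. Of these, 9 had a log2 fold change above 0 and 3 below, with a median of 0.21, and 4 of the 12 had every heterozygote library above every wild-type one (background 7.8%). Among the untested paternally expressed members, the heterozygote libraries all lay above the wild-type ones for Usp29 and below them for Peg10 and Kcnq1ot1. Of 9 maternally expressed members, 4 were tested, with 3 above 0 and 1 below. The heterozygote libraries all lay above the wild-type ones for DQ267102 among these (background 7.8%) and for the untested Asb4. DQ267102 passed the filter only through its heterozygote libraries. Of 7 members whose imprint depends on tissue or isoform, 5 were tested, with 2 above 0 and 3 below. Over the 21 tested members, 14 were above 0, where 53.1% of all tested genes were, and the median was 0.20, against 0.01 over all tested genes. Without heterozygote replicate 2 the median was 0.08, against 0.03 over all genes. No test was made of these medians.

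Genes that lie among the members without belonging to them were counted as well. Of 130 listed genes between the outermost members of the larger loci or within 100 kb of the members of the smaller ones, 47 were tested and 0 passed the limma threshold. At an unadjusted p under 0.05 there were 1 higher (Osbpl1a, beside Impact) and 4 lower (Cars, Cdkn1c, Pon3 and Tcp1), against the backgrounds of 4.06% and 2.44%. The groups did not overlap for 4 higher neighbours (Lsp1, Mrpl23, Copg2 and Osbpl1a) and 7 lower ones (Cars, Cdkn1c, Pon3, Tcp1, Gm44250, Rem1 and Cct4), against backgrounds of 7.8% and 5.12%. Osbpl1a was at 6.13, 8.99 and 7.03 FPKM in heterozygotes, against 5.61, 5.24 and 5.66 FPKM in wild type, so that it and Impact both had higher heterozygote libraries. Within the Dlk1-Meg3 locus 19 such genes were listed and 0 reached the filter.

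Further imprinted genes outside the members gave no call either. Of 32 tested, 0 passed the limma threshold, 1 was higher at an unadjusted p under 0.05 (Trappc9, background 4.06%) and 2 were lower (Pon3 and Cdkn1c, background 2.44%), and their median log2 fold change was 0.03. Trappc9, of the vesicle tethering TRAPP complex, averaged 9.28 ± 0.484 FPKM in heterozygotes and 7.78 ± 0.497 FPKM in wild type (SD, n = 3 each), with a log2 fold change of 0.23. Copg2, a coat protein gene that overlaps Mest on the other strand, averaged 6.89 ± 1.78 FPKM in heterozygotes and 5.28 ± 0.174 FPKM in wild type (SD, n = 3 each), and it followed Mest in being highest in heterozygote replicate 2, at 8.94 FPKM, with a log2 fold change of 0.31 that was 0.13 without that library.

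Genes that place or keep the imprint were counted last. Of 23 tested, 0 passed the limma threshold, 1 was higher (background 4.06%) and 1 lower (background 2.44%) at an unadjusted p under 0.05. Ctcfl, the germline relative of the insulator protein CTCF, was at 1.40, 1.78 and 1.26 FPKM in heterozygotes, against 2.08, 2.11 and 2.74 FPKM in wild type, with a log2 fold change of -0.42 (SE 0.13, limma adjusted p = 0.651). Its 3 heterozygote libraries lay below the 3 wild-type ones. Arid4a, a chromatin-binding protein, averaged 6.62 ± 0.466 FPKM in heterozygotes and 5.30 ± 0.584 FPKM in wild type (SD, n = 3 each), with a log2 fold change of 0.28. Zfp57, the reader of the hexamer described above, was at 3.50, 1.28 and 3.41 FPKM in heterozygotes, against 3.61, 4.14 and 4.77 FPKM in wild type, and its log2 fold change of -0.53 (limma adjusted p = 0.817) was -0.21 without heterozygote replicate 2. Eed, a Polycomb subunit, averaged 6.87 ± 0.761 FPKM in heterozygotes and 6.199 ± 0.495 FPKM in wild type (SD, n = 3 each).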

How the data were processed

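RNA of 6 aortic libraries, 3 Palmd heterozygote and 3 wild type by their titles, was selected on poly-T beads and primed with random hexamers, per the labels' protocols. The values deposited by the authors are FPKM, a unit read from the values. GRCm38 and the tools Bowtie2 2.2.3, TopHat2 and HISAT2 2.1.0 are named, without roles, in the submitters' processing notes. The counting step and its gene models were not given in the sources used here. Headers inside the heterozygote files carry other replicate numbers than the titles, which were used. Multiplied by GENCODE M21 exon lengths, values gave whole reads within 0.01 for 95.1% to 95.6% of genes with under 20 reads, and within 0.05 for 30 of the 37 members, which are given as reads.

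The 12620 genes that reached 1 FPKM in 3 or more libraries were tested by limma (version 3.58.1, under R 4.3.3). Values were log2(FPKM + 1), which understates changes of low genes, with a mean-variance trend, no covariate, and Benjamini-Hochberg adjustment over all of them at 0.05. Single genes were compared by exact two-sided permutation. On simulated data for these 12620 genes, 57.5% of 2-fold and 88.9% of 4-fold shifts of FPKM + 1 were recovered, with means of 7.4 and 9.8 false calls. The shifts were made on that scale, so for low genes they stand for larger changes of FPKM. Noise was normal and independent for each gene, so deviations shared within a library, as in heterozygote replicate 2, were not modelled. These rates average over all genes and are not rates for the members. Alternatives were a pseudocount of 0.1, a filter of 0.1 FPKM, median-of-ratios scaling, voom on reads, a replicate block, library weights, a white adipocyte covariate and each library left out. Members and gene lists were chosen with earlier results of these data known, and the grouping by parental copy after the values were seen. All members are named. Tested members are given by library where the unadjusted p was under 0.05, the groups did not overlap or the locus was Dlk1-Meg3, Igf2-H19 or Igf2r-Airn, and up to 4 genes of each other list are given. Other tools were Python 3.11.15, numpy 2.4.6, pandas 2.3.3, scipy 1.17.1, biopython 1.88 and matplotlib 3.10.9.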

Additional observations from a re-analysis of the deposited data

How the results depend on the processing

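Of the 21 tested members, 17 kept the direction of their fold change under all of the 13 alternatives that could be fitted (voom could not be fitted for DQ267102). Igf2 turned to 0.45 with library weights and ranged from -0.43 to 0.42 when single libraries were left out, Igf2r to 0.016 and from -0.12 to 0.025, Gnas to -0.23 and from -0.17 to 0.19, and Commd1 to 0.0012 with voom and from -0.053 to 0.026. Igfbp2 turned to 0.26 with library weights. The cause was not tested. Library weights moved the calls from 0 to 232 genes in all, 1 member (DQ267102), 3 neighbours (Cars, Cdkn1c and Pon3) and 2 further imprinted genes (Cdkn1c and Pon3), with 8 members higher and 1 lower at an unadjusted p under 0.05, where 15.8% of all genes were higher and 10.6% lower. They gave heterozygote replicate 2 a weight of 0.170 and heterozygote replicate 3 one of 3.59. The white adipocyte covariate gave 8 members higher at that p, where 9.48% of all genes were, and voom 1 lower (Kcnq1ot1), where 2.23% of all genes were. Leaving out single libraries gave 0 to 1 genes called in all (1 without heterozygote replicate 1 or 3 or wild-type replicate 2), 1 to 4 members higher and 0 to 1 lower at an unadjusted p under 0.05, with 4 (DQ267102, Igf2, Plagl1 and Sgce) without heterozygote replicate 2. At that p, 7.91% of all genes were higher and 6.02% lower without heterozygote replicate 2. With any other library left out, 2.02% to 4.12% were higher and 1.24% to 3.93% lower. Members with groups that did not overlap, counted this way after seeing the data, were 5 to 8 higher and 1 to 2 lower, where 10.5% to 20.7% of all genes were higher and 7.79% to 12.8% lower. Same-numbered libraries correlated at 0.51, -0.09 and -0.34 in their deviations from the group means. Deviations within a group of 3 sum to 0, so these values cannot show whether the numbers pair the libraries. The replicate block gave 0 calls and a smallest limma adjusted p of 0.790. At an unadjusted p under 0.05 it gave 2 members higher (3.49% of all genes) and 0 lower (2.36% of all genes). Not every library correlated best with its own number. Median-of-ratios scaling moved the median of all genes to -0.02 and gave 406 genes higher and 428 lower at an unadjusted p under 0.05, against 512 and 308. Read number limits the snoRNAs and the 16 members under the filter.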

Other observations

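Other gene groups of the aorta were read from the same libraries, and none of their genes passed the limma threshold. Of 5 tested nuclear retained RNAs, 1 had a log2 fold change above 0 (Firre) and 4 below, with a median of -0.09. Of all tested genes, 53.1% lay above 0. Malat1, an abundant nuclear RNA, averaged 32.7 ± 9.97 FPKM in heterozygotes and 37.2 ± 10.1 FPKM in wild type, and Neat1, the core RNA of paraspeckles, 39.1 ± 6.76 FPKM in heterozygotes and 41.8 ± 8.61 FPKM in wild type (SD, n = 3 each). These are long non-coding RNAs like Meg3 and Rian, and their groups overlapped.

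Of 8 tested brown adipocyte markers, 7 had a log2 fold change below 0, where 46.9% of all tested genes did, with a median of -0.74. At an unadjusted limma p under 0.05, 2 were lower (Dio2 and Fabp3, background 2.44%) and 0 higher. The sum of the 9 listed markers was highest in heterozygote replicate 2 (1327 FPKM against 92.0 to 1146 elsewhere), and most of it there was Ucp1. Dio2 was lowest in that library, at 6.11 FPKM against 7.64 to 20.1 elsewhere, and Fabp3 was not highest there. Ucp1, the uncoupling protein of brown fat, was at 34.9, 790 and 153 FPKM in heterozygotes, against 117, 682 and 489 FPKM in wild type. The log2 fold change of Ucp1 was -1.06, and -2.20 without heterozygote replicate 2, and the groups overlapped. Of 7 tested macrophage markers, 5 lay above 0, where 53.1% of all tested genes did. The groups did not overlap for 1 of them, Csf1r (background 7.8%), while Mrc1 (log2 fold change 0.11), Adgre1 (0.05) and Lyve1 (-0.09) had overlapping groups. Csf1r, the receptor that macrophages need to live, was at 22.01, 20.8 and 24.5 FPKM in heterozygotes, against 15.6, 18.9 and 17.0 FPKM in wild type, with no overlap (log2 fold change 0.37, limma adjusted p = 0.651). Of 9 tested fibroblast markers, 7 lay above 0, against the same 53.1% of all tested genes. The 12 striated muscle markers summed to 10.6 to 21.3 FPKM in heterozygotes and 12.6 to 21.6 FPKM in wild type.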
